A study of Homo sapiens with 6 samples.

Results

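Cholesterol and fatty acid synthesis was followed through a list of 38 human genes, which covers the mevalonate pathway, the steps from squalene to cholesterol, the sterol-sensing control system, and the building, desaturation and elongation of fatty acids. Its members were the probe sets whose only gene symbol in the platform annotation was a listed gene, and these were 82 of the 54675 probe sets on the array, for 34 of the 38 genes. CYP51A1, FADS1 and ELOVL1 lay only in probe sets of several symbols and were not named from them, and FDFT1 was not analysed here. Probe sets with a log2 value over 4 on 3 or more of the 6 arrays, of either group, were tested. In all, 65 member probe sets of 33 genes passed this filter, and the brightest of a gene's tested probe sets (by its mean over the 6 arrays) stands for the gene. All 33 representing probe sets were over 4 in all 6 arrays, so none entered through 1 group alone. The 7 probe sets of ACACB, which codes for the acetyl-CoA carboxylase of the mitochondrial surface, did not pass.

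The arrays measured total RNA of MDA-MB-231, a cell line from a human breast tumour with basal and mesenchymal traits that lacks oestrogen and progesterone receptors. Both groups of cells had been transduced with a lentivirus and sorted for GFP. The virus of the GFP control group (3 arrays) carried eGFP, a green fluorescent marker protein, alone, and the virus of the second group (3 arrays) carried GATA3, a transcription factor of luminal mammary cells, together with eGFP. Cells of both groups were grown in high-glucose DMEM with 10% FBS, seeded in 100 mm dishes, and RNA was taken after 2 days. The promoter that drives the transgene is not stated in the sources used here. The labels do not say that the 3 arrays of a group came from separate cultures, so the p-values reflect a spread that may be technical. The title of the series concerns a move of basal cells towards a luminal state under GATA3, and the comparison described here asks how the genes of lipid synthesis stood in the same arrays.

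GATA3 itself was read lower in the arrays labelled GATA3. Its brightest probe set (209604_s_at) read 9.37, 9.35 and 9.45 on the GFP control arrays and 7.93, 7.94 and 7.32 on the arrays labelled GATA3, a 3.16-fold lower mean (adjusted p = 0.00238, limma). A second probe set (209602_s_at) was at least 1.66-fold lower. Probe sequences were not at hand to tell if these probe sets can detect the transcript of the virus, and every direction below rests on the labels alone.

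All 6 markers of the cell line (VIM, CD44, MSN, CAV1, PLAU and AXL) were over 4, with a mean level of 13.6 to 13.8 per GFP control array and 13.4 to 13.7 per array labelled GATA3. Among them VIM, MSN and PLAU passed as lower, with log2 differences of -0.32, -0.24 and -0.80. Of 4 genes listed as low in this line (ESR1, PGR, CLDN3 and CLDN4), 3 were over 4 in at least 3 arrays. The epithelial junction gene CLDN4 read 8.82 to 8.94 in the GFP control and 10.07 to 10.15 in the arrays labelled GATA3. CLDN3 read 5.34 to 6.37 and 7.06 to 7.28, and both passed as higher (limma, adjusted p = 0.000117 and 0.0271). ESR1, the oestrogen receptor, read 4.02 on 5 arrays and 4.45 on GATA3 replicate 3. PGR, the progesterone receptor, lay at the common floor of 2.16 on all arrays. Of the markers of lipid-making cell types, 5 of 7 adipocyte genes and 4 of 6 hepatocyte genes were not over 4 in any array, and ADIPOQ, PLIN1, ALB and TTR lay at that floor. The others were over 4 on all 6 arrays, with means of 7.35 for LIPE and 5.06 for CIDEC (adipocyte), and 5.08 for APOA1 and 7.55 for SERPINA1 (hepatocyte). The summed level of the adipocyte list was 23.0 to 23.4 in the GFP control and 23.2 to 23.3 in the arrays labelled GATA3. That of the hepatocyte list was 21.8 to 22.0 and 20.5 to 20.7, with SERPINA1 lower by a log2 difference of -1.34 (adjusted p = 0.00264). Of 5 leukocyte genes, 4 were not over 4 in any array, PTPRC and CD3E among them, while CD79A was over 4 on all 6 (mean 4.32). The summed level of the fibroblast list was 22.6 to 23.3 and 30.6 to 32.1, a difference that lay in LUM (3.03 to 3.50 against 10.95 to 10.98). In that list DCN, COL1A2 and COL3A1 were not over 4 in any array, while COL1A1 and PDGFRB were over 4 on all 6 and did not pass. The part of these markers in the results was not tested. GATA3 replicate 3 stood apart from the other 2 arrays of its group. It correlated with them at 0.984 to 0.986, against 0.997 between them, its 75th percentile was 7.78 where the other 5 arrays had 7.97 to 8.04, and it alone carries another raw-file date. Values without it are therefore the values within the date that the other 5 share. It was the lowest array of its group for 24 of the 33 lipid synthesis genes, and for 6145 of all 10814 genes tested.

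Cells make cholesterol from acetyl-CoA by way of mevalonate and squalene, and make fatty acids from the same acetyl-CoA. Both routes are driven by the transcription factors SREBP-1 and SREBP-2. When sterols are plentiful, INSIG proteins hold the SREBP escort SCAP in the endoplasmic reticulum and the factors stay inactive. When sterols are scarce, SCAP carries the SREBPs to the Golgi, where they are cut and released to the nucleus. New saturated fatty acids are then lengthened by ELOVL enzymes and given double bonds by SCD and FADS enzymes, which sets the fluidity of membranes.

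Of the 33 genes, 3 rose and 6 fell in the arrays labelled GATA3 at an adjusted p under 0.05, and 24 did not pass. The called share of the lipid synthesis genes was 27.3%, against 29.3% of all genes tested (14.8% higher and 14.5% lower), both with the values as deposited. NSDHL, ACSS2 and ELOVL7 were the genes that rose, and INSIG1, SCD5, FADS2, FADS3, ELOVL6 and LPIN1 those that fell. The groups did not overlap for 23 of the 33 genes, against 49.5% of all genes. The median log2 difference was -0.03 (all genes -0.02), and its median size 0.24 (all genes 0.21). SCD5, ELOVL6 and ELOVL7 passed with a change of at least 2-fold, 3 of 33 genes against 7.28% of all genes. Counted over probe sets, 5 of the 65 were higher and 12 lower (26.2%, against 25.3% of all 23785 tested). In whole cultures, fewer cells that express a gene and less RNA per cell cannot be told apart.

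The share of higher calls depended on how the arrays were scaled and on GATA3 replicate 3. With the array medians set equal, 9 genes were higher and 6 lower (60.0% of the calls higher, against 33.3% with the values as deposited), while 28.9% of all probe sets were called, 3532 higher and 3333 lower. With quantile or cyclic loess normalization 10 genes were higher and 6 lower (62.5% higher), and 31.4% and 29.8% of all probe sets were called. The calls thus numbered 15 or 16 of 33 under these scalings, against 9 as deposited. The shares beside the alternatives are of probe sets and not of genes. The share of all genes was counted with the values as deposited alone, where it was 29.3%, against 25.3% of probe sets. Without GATA3 replicate 3, 9 were higher and 7 lower, against 30.8% of all probe sets called. Without GFP control replicate 1, 2 or 3 the counts were 1 and 3, 1 and 4, and 1 and 2, and without GATA3 replicate 1 or 2 they were 1 and 5, and 2 and 5. INSIG1, ELOVL6 and ELOVL7 passed in the same direction in every one of the 16 alternatives tried for them. Among these, probe sets with the suffix _at alone kept the same probe set for each of the 3 genes, so that choice could not change their calls. The mean of all tested probe sets also left the values of ELOVL7 as they were, since it has 1 probe set.

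**Figure D1:**
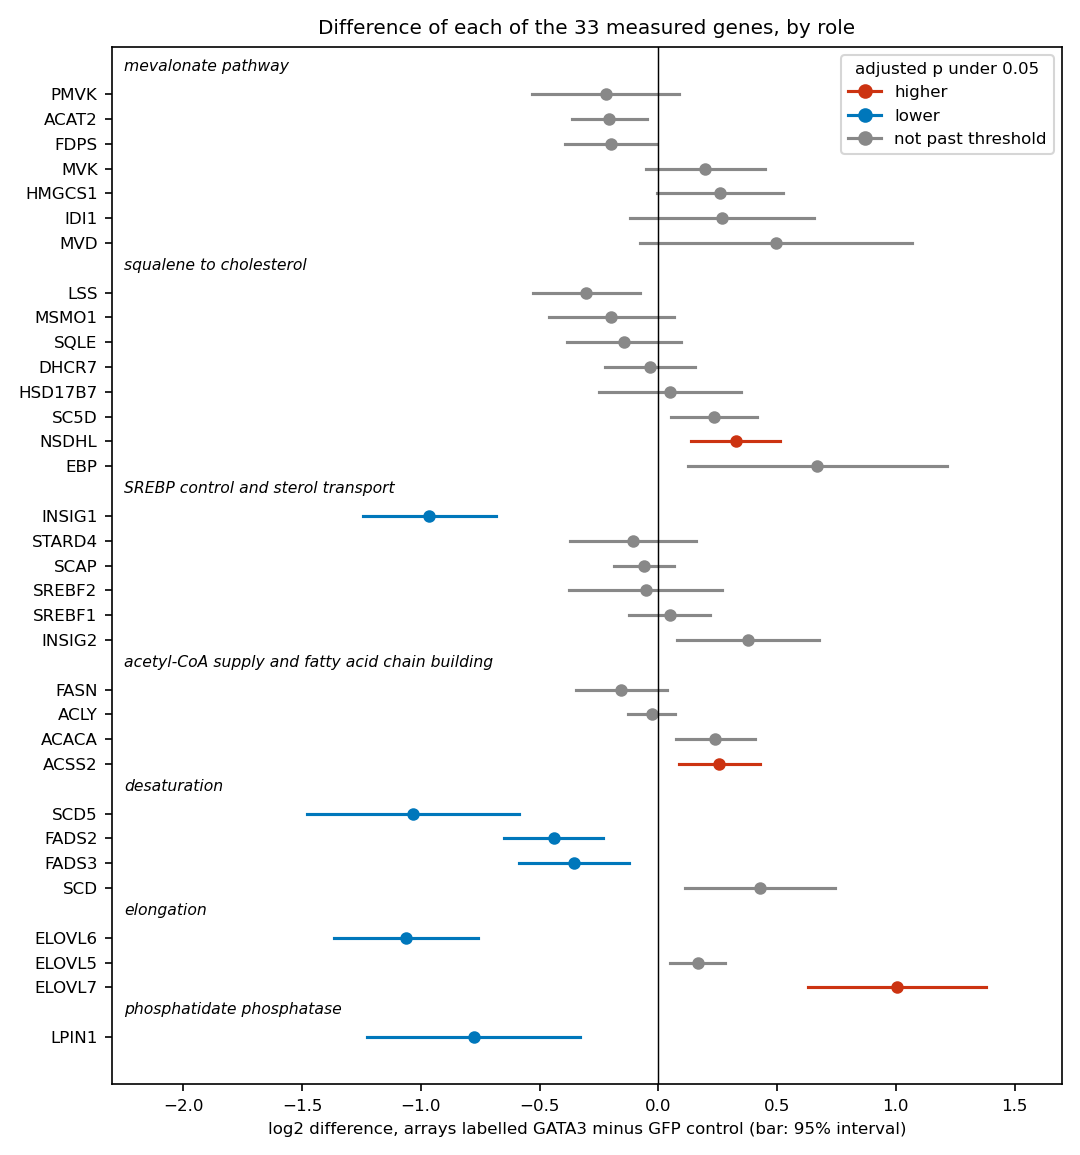
Difference of each of the 33 lipid synthesis genes (arrays labelled GATA3 minus GFP control, log2), grouped by role, with points for the estimate and bars for the 95% interval; colours mark genes past an adjusted p of 0.05. Of the sterol enzymes NSDHL is coloured, and EBP (0.67) and MVD (0.50) lie farthest from 0 with wide bars, while SCD5 and ELOVL6 lie near -1 and ELOVL7 near 1.

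The sequence upstream of the start is shown for 5 genes, the 4 with the largest changes that passed and SCD beside its relative SCD5, so that the promoters behind these readings can be seen. Windows are the 250 bases before the gene's start in RefSeq's GRCh38.p14 annotation, written 5′ to 3′ on the strand of the gene. Capitals mark matches on either strand. One motif was CACGTG, known as the E-box. The next was CCAAT, the box bound by the factor NF-Y, and the last to be found here was GGGCGG, the GC box bound by Sp1. Also searched were TCACNCCAC, 1 form of the sterol regulatory element, and AGATAA, 1 form of the GATA site. Neither has a match in these 5 windows. Other forms of these 2 sites were not searched, so a window without TCACNCCAC or AGATAA may still hold them. Overlapping matches were each counted.
INSIG1, chr7:155297628-155297877, plus strand: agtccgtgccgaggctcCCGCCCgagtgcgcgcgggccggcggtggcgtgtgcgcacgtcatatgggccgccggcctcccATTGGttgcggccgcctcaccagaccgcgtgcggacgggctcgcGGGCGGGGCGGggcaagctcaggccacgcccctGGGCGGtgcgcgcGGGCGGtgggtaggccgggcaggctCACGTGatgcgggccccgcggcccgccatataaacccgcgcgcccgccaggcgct
SCD, chr10:100346983-100347232, plus strand: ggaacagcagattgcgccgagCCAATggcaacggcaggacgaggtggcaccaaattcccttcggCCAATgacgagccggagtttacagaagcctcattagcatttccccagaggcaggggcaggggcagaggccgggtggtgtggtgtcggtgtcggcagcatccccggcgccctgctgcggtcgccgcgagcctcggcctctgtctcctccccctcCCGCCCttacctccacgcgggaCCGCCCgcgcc
SCD5, chr4:82798797-82799046, minus strand: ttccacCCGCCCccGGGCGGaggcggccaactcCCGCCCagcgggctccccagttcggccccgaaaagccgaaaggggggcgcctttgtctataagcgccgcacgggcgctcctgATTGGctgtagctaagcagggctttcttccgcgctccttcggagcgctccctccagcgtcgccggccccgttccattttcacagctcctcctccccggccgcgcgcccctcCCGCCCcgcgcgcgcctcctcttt
ELOVL6, chr4:110198616-110198865, minus strand: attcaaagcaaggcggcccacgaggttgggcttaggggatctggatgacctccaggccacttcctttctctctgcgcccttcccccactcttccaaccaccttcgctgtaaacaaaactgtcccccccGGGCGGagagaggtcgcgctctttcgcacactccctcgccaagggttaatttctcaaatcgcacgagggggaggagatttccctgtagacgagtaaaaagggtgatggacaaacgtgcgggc
ELOVL7, chr5:60844270-60844519, minus strand: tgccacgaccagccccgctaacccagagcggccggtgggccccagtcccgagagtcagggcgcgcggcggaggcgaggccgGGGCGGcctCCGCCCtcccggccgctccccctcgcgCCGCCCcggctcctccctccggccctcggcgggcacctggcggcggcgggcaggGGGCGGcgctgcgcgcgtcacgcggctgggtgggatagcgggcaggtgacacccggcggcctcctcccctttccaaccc
INSIG1 holds 1 E-box, 1 CCAAT box and 5 GC boxes, and SCD holds 2 CCAAT boxes and 2 GC boxes. SCD5 holds 1 CCAAT box and 4 GC boxes, ELOVL7 holds 4 GC boxes and no CCAAT box, and ELOVL6 holds 1 GC box alone. RefSeq windows were found for 30 of the 33 genes (43 windows, since some genes have several starts). Windows of the same gene can overlap, as those of SC5D do, so the same match can count in more than 1 window. A CCAAT box lay in 60.5% of the 43 windows, against 33.3% of the windows of all tested genes and 32.0% of all 35116 windows. A GC box lay in 86.0%, against 64.3% and 42.6%. The median GC content of the windows was 68.0% for lipid synthesis genes, 64.8% for tested genes and 58.0% for all, and its part in these shares was not tested. An E-box lay in 11.6% (8.4% and 6.34%), AGATAA in 2.33%, that of FDPS (4.83% and 9.17%), and TCACNCCAC in 2.33%, that of SREBF2 (0.887% and 0.883%). A match is a run of letters and not a shown binding site.

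Among the genes of sterol sensing and transport, INSIG1 changed, the anchor of SCAP and itself a known SREBP target. Of 6 such genes, 1 fell, none rose and 5 did not pass, with a median difference of -0.06. At an unadjusted p under 0.05, 1 more (INSIG2) was higher. INSIG1 (201626_at) read 9.53, 9.57 and 9.80 on the GFP control arrays and 8.66, 8.83 and 8.52 on the arrays labelled GATA3. All 3 arrays labelled GATA3 lay below all GFP control arrays, and the mean was 1.95-fold lower (log2 difference -0.96, SE 0.11, adjusted p = 0.00297). Its 2 other probe sets also fell, by 1.08 and 0.75 on the log2 scale (adjusted p = 0.0123 and 0.0119). The first of these did not pass without GFP control replicate 1 or 3 (adjusted p = 0.0528 and 0.0562), nor the second without GFP control replicate 1 (adjusted p = 0.0511). Of the 5 windows printed above, that of INSIG1 is the one with an E-box of the form CACGTG. INSIG2, the second SCAP anchor, read 9.15, 9.22 and 9.16 in the GFP control and 9.76, 9.60 and 9.31 in the arrays labelled GATA3. Its groups did not overlap, and the difference of 0.38 did not pass with the values as deposited (adjusted p = 0.0727). It passed under the 3 other scalings (adjusted p from 0.00397 to 0.00905), and without GATA3 replicate 3 it was 0.50 (adjusted p = 0.00753).

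SREBF1 and SREBF2, which code for the SREBP factors themselves, overlapped between the groups. SREBF1 (202308_at) read the identical value of 7.80 on 4 of the 6 arrays, 7.78 on GFP control replicate 2 and 7.93 on GATA3 replicate 1. GCRMA can return 1 repeated value for a probe set without signal above its estimated background, and 13 of the 65 member probe sets (20.0%) held a value repeated on at least 2 arrays, against 16.1% of all tested probe sets. Of the 33 representing probe sets 3 did so. The SREBF1 difference of 0.05 had an interval of -0.12 to 0.22 (adjusted p = 0.629). SREBF2 (201247_at) read 8.37, 8.26 and 8.19 in the GFP control and 8.06, 8.13 and 8.48 in the arrays labelled GATA3. Both the highest and the lowest of these values were in arrays labelled GATA3. The difference was -0.05, with an interval of -0.37 to 0.27 (adjusted p = 0.786), and its sign changed under all 3 other scalings (0.02 to 0.05). SCAP, the escort of the SREBPs, differed by -0.06 and STARD4, a carrier of cholesterol between membranes, by -0.11, and neither passed. The sign of SCAP changed with array medians set equal and with cyclic loess (0.02 in both).

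How many enzymes of cholesterol synthesis passed depended on the scaling. Of 15 sterol enzymes measured, 1 (NSDHL) rose, none fell and 14 did not pass with the values as deposited, against 29.3% of all genes called, and the median difference was 0.05. Under each of the 3 other scalings 4 were higher and 1 (LSS) lower, with NSDHL, HMGCS1 and SC5D among the higher each time. Without GATA3 replicate 3, 5 were higher and 1 lower. With array weights 10 were called, beside 49.8% of all probe sets. The NSDHL call was lost, and 0 remained, on leaving out GATA3 replicate 1 or any single GFP control array. In the mevalonate pathway none of 7 genes passed in limma, and 2 (ACAT2 and FDPS, both lower) had an unadjusted p under 0.05. HMGCS1, which makes HMG-CoA from acetyl units, read 7.52, 7.58 and 7.54 on the GFP control arrays and 7.87, 7.95 and 7.60 on the arrays labelled GATA3. Its groups did not overlap, although GATA3 replicate 3 lay close to the GFP control. The difference of 0.26 (SE 0.11) did not pass with 6 arrays (adjusted p = 0.136) and was 0.36 without GATA3 replicate 3 (adjusted p = 0.012). It also passed under the 3 other scalings (adjusted p from 0.0223 to 0.0345).

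The other 6 mevalonate genes had differences from -0.22 (PMVK, a kinase that acts on mevalonate phosphate) to 0.50 (MVD, the decarboxylase, adjusted p = 0.174). ACAT2, which joins acetyl-CoA units, differed by -0.21 (adjusted p = 0.0684), FDPS, which makes farnesyl diphosphate, by -0.20 (adjusted p = 0.117) and MVK, which phosphorylates mevalonate, by 0.20 (adjusted p = 0.206). Probe sets of IDI1, the isopentenyl diphosphate isomerase, differed in direction. The brightest (208881_x_at) and 204615_x_at differed by 0.27 and 0.26, while 233014_at and 242065_x_at differed by -0.41 and -0.18, and none passed. Probe sets with the suffix x_at can bind related transcripts, so the value of IDI1 is uncertain. Without GATA3 replicate 3 the brightest probe set of IDI1 passed at 0.43 (adjusted p = 0.0177).

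From squalene onwards, 1 of 8 genes rose and none fell, while at an unadjusted p under 0.05 there were 3 higher (NSDHL, EBP and SC5D) and 1 lower (LSS). SQLE, the epoxidase that is a rate-limiting step of the route, read 8.58, 8.51 and 8.63 in the GFP control and 8.55, 8.48 and 8.25 in the arrays labelled GATA3. These groups overlapped, with GATA3 replicates 2 and 3 below the GFP control range and GATA3 replicate 1 within it. The difference was -0.14, with an interval of -0.39 to 0.10 (adjusted p = 0.318). NSDHL, which removes a methyl group of the sterol ring, read 8.51, 8.42 and 8.44 against 8.89, 8.69 and 8.77. All arrays labelled GATA3 were higher, with a log2 difference of 0.33 (SE 0.08, adjusted p = 0.0284). The call was lost without any one GFP control array or without GATA3 replicate 1 (adjusted p from 0.0621 to 0.0993), and the second probe set of NSDHL differed by 0.15 and did not pass (adjusted p = 0.4).

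EBP, the sterol isomerase, was the sterol enzyme with the largest difference and a call that turned on the probe set. Its brightest probe set (213787_s_at) read 11.38, 11.21 and 11.32 in the GFP control and 11.70, 11.74 and 12.48 in the arrays labelled GATA3. The groups did not overlap, but GATA3 replicate 3 stood above the other 2 of its group, and the difference of 0.67 did not pass (adjusted p = 0.0786). Without that array it was 0.42 and passed (adjusted p = 0.0101). A second probe set (202735_at) read 10.87, 10.76 and 10.78 against 11.26, 11.26 and 11.50 and passed with all 6 arrays (0.54, SE 0.08, adjusted p = 0.00651). The third (213789_at) held the excess of GATA3 replicate 3 at its plainest, with 11.70 on that array against 9.45 and 9.43 on the other 2 of the group, and 9.12 to 9.46 in the GFP control. SC5D, the last desaturase of the sterol ring, differed by 0.24 (adjusted p = 0.0686) and passed under the 3 other scalings (adjusted p from 0.0172 to 0.0232) and without GATA3 replicate 3 at 0.28 (adjusted p = 0.0441). LSS, which closes the ring, differed by -0.30 (adjusted p = 0.0628) and passed under the 3 other scalings (adjusted p from 0.0194 to 0.0326) and without that array at -0.21 (adjusted p = 0.0164). MSMO1, HSD17B7 and DHCR7 differed by -0.20, 0.05 and -0.03 and did not pass. The 2 probe sets of DHCR7 differed in sign (-0.03 and 0.19), the sign of its brightest probe set also changed under all 3 other scalings (0.01 to 0.05), and HSD17B7 was read by an x_at probe set that can bind related transcripts.

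**Figure D2:**
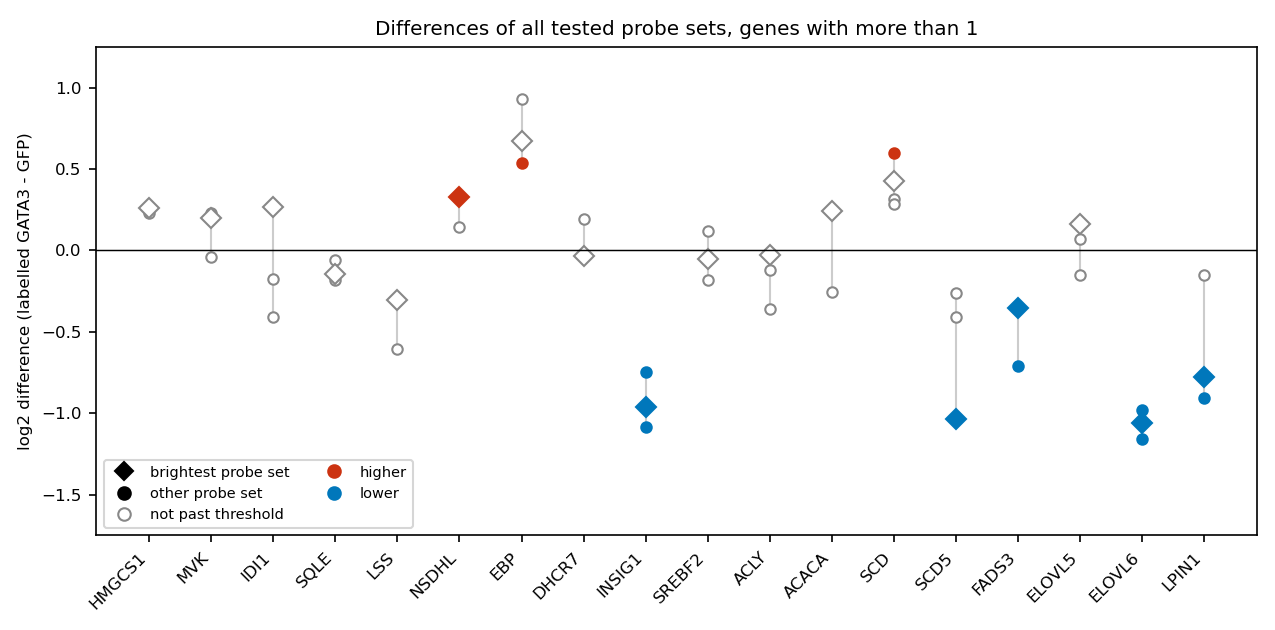
Log2 difference (arrays labelled GATA3 minus GFP control) of all tested probe sets of the genes with more than 1. Diamonds are the brightest probe set and circles the others, and filled symbols passed an adjusted p of 0.05. All probe sets of INSIG1 and of ELOVL6 passed in the same direction, while those of IDI1, DHCR7, SREBF2, MVK, ACACA and ELOVL5 lie on both sides of 0.

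The genes that supply acetyl-CoA and build the fatty acid chain gave 1 call among 4. ACSS2, which makes acetyl-CoA from acetate, read 8.29, 8.27 and 8.33 on the GFP control arrays and 8.62, 8.59 and 8.46 on the arrays labelled GATA3. The groups did not overlap, and the difference was 0.26 (SE 0.07, adjusted p = 0.0451). The call was lost without any one of the arrays other than GATA3 replicate 3 (adjusted p from 0.103 to 0.135). ACACA, the cytosolic carboxylase that commits acetyl-CoA to fatty acids, read 10.08, 9.88 and 10.08 against 10.24, 10.24 and 10.28. All arrays labelled GATA3 were higher, and the difference of 0.24 (SE 0.07) lay just outside the threshold (adjusted p = 0.0506). It passed under the 3 other scalings (adjusted p from 0.0301 to 0.0445). A second, dim probe set of ACACA differed by -0.25 (adjusted p = 0.239). FASN, the fatty acid synthase itself, read 9.33, 9.27 and 9.47 against 9.25, 9.24 and 9.11. Every array labelled GATA3 lay below the GFP control, but the difference was -0.16, with an interval of -0.35 to 0.03 (adjusted p = 0.194). ACLY, which makes acetyl-CoA from citrate, differed by -0.03 (adjusted p = 0.618), and its sign changed with array medians set equal (0.05).

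Of the 9 calls made with the values as deposited, 5 lay among the enzymes that modify finished fatty acids. They were 5 of 15 calls with array medians set equal, 6 of 16 with quantile or cyclic loess normalization, and 6 of 16 without GATA3 replicate 3. Without GFP control replicate 1, 2 or 3 they were 3 of 4, 4 of 5 and 2 of 3 calls. Without GATA3 replicate 1 or 2 they were 4 of 6 and 4 of 7. In these 5 settings 15.5% to 20.1% of all probe sets were called. With the replicate block they were 3 of 5, beside 17.4% of all probe sets called. With no filter on low values they were 3 of 4, beside 6.62% of a larger set that includes dim probe sets. Of 7 desaturases and elongases, 4 fell, 1 rose and 2 did not pass with the values as deposited (71.4% called, against 29.3% of all genes). The groups did not overlap for any of the 7, nor for 49.5% of all genes. These roles were grouped after the values had been seen, so the share is a description. Over their 17 tested probe sets, 7 fell and 2 rose (52.9% called, against 25.3% of all tested probe sets).

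**Figure D3:**
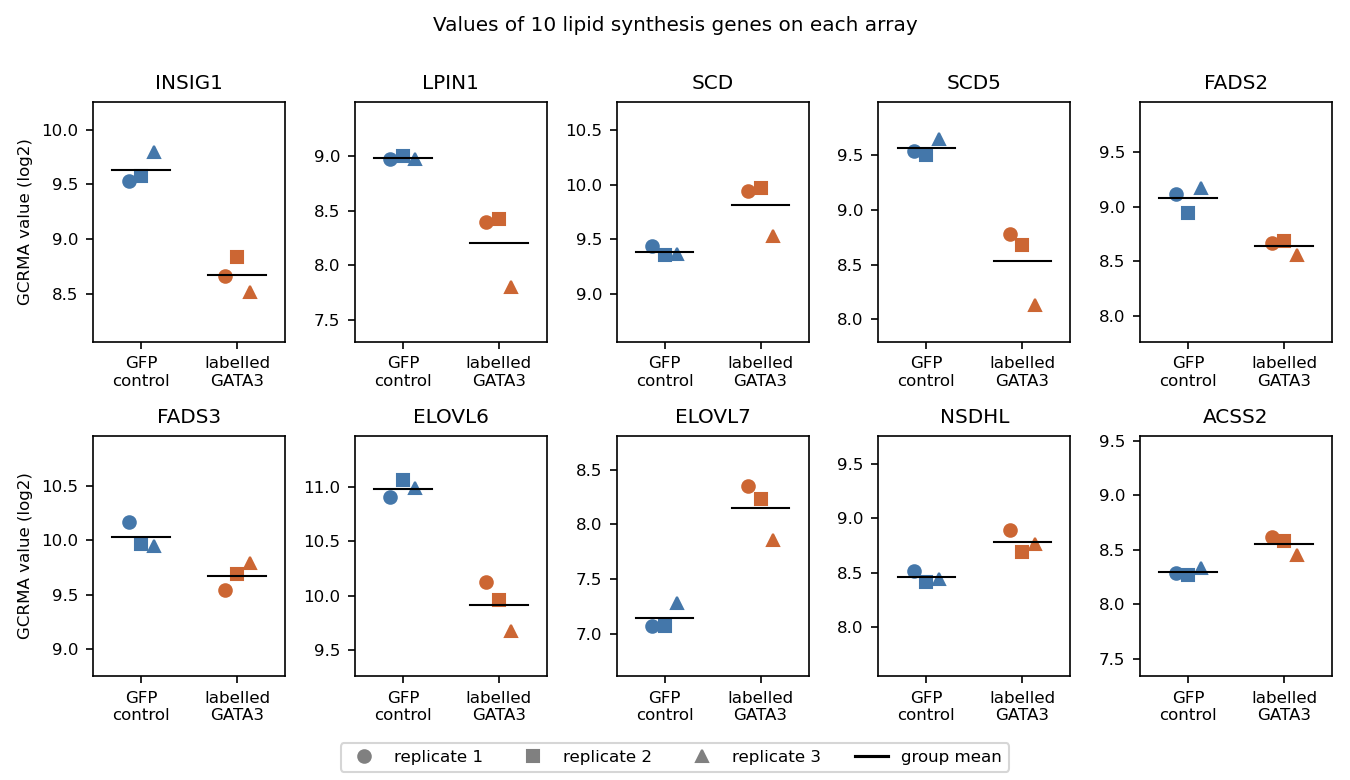
GCRMA values (log2) of 10 lipid synthesis genes on each of the 6 arrays, with circles, squares and triangles for replicates 1, 2 and 3 and a line for the group mean. The genes are those called with the values as deposited, and SCD, so the panels were chosen by their values. The groups do not overlap in any panel, nor for 49.5% of all genes. GATA3 replicate 3 is the lowest array in the panels of INSIG1, LPIN1, SCD5, FADS2 and ELOVL6. It is the array labelled GATA3 nearest the GFP control for SCD, FADS3, ELOVL7 and ACSS2.

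The 2 stearoyl-CoA desaturases, which place the first double bond in saturated fatty acids, read in opposite directions. SCD5 (224901_at) read 9.54, 9.50 and 9.65 in the GFP control and 8.78, 8.68 and 8.13 in the arrays labelled GATA3. All 3 arrays labelled GATA3 were lower, GATA3 replicate 3 the most, and the mean was 2.05-fold lower (log2 difference -1.03, SE 0.18, adjusted p = 0.0113). Without GFP control replicate 3 the adjusted p was 0.0529, and without GATA3 replicate 3 the difference was -0.84 (adjusted p = 0.00229). The 2 dimmer probe sets of SCD5 differed by -0.41 and -0.26 and did not pass (adjusted p = 0.128 and 0.159). SCD (200832_s_at) read 9.43, 9.36 and 9.37 in the GFP control and 9.94, 9.97 and 9.53 in the arrays labelled GATA3. The groups did not overlap, with GATA3 replicate 3 closest to the GFP control, and the difference of 0.43 (interval 0.11 to 0.74) did not pass (adjusted p = 0.0609). It passed at 0.57 without GATA3 replicate 3 (adjusted p = 0.00184) and under the 3 other scalings (adjusted p from 0.0031 to 0.00853). A second probe set of SCD (200831_s_at) read 9.26, 8.93 and 9.26 against 9.78, 9.78 and 9.70, and passed with all 6 arrays (0.60, SE 0.11, adjusted p = 0.0123). The remaining 2 probe sets of SCD differed by 0.28 and 0.31 and did not pass. The difference between the changes of SCD and SCD5 was not tested.

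The front-end desaturases FADS2 and FADS3 both fell. FADS2, which places the first double bond in the making of long polyunsaturated fatty acids, read 9.12, 8.94 and 9.17 against 8.67, 8.69 and 8.56. The groups did not overlap, and the mean was 1.36-fold lower (log2 difference -0.44, SE 0.08, adjusted p = 0.0152). Without GFP control replicate 1 or 3 it did not pass (adjusted p = 0.0602 and 0.0584). FADS3, a relative that acts on sphingoid bases, read 10.17, 9.97 and 9.95 against 9.54, 9.69 and 9.79 on its brightest probe set. Its groups did not overlap, and the difference was -0.35 (SE 0.09, adjusted p = 0.0416). This call was lost without any one of the arrays other than GATA3 replicate 3 (adjusted p from 0.0863 to 0.105) and under the 3 other scalings (adjusted p from 0.0684 to 0.162). The second probe set of FADS3 (216080_s_at) fell by 0.71 (adjusted p = 0.00286). FADS1, FADS2 and FADS3 follow each other on chromosome 11 in RefSeq's gene order.

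Of the 3 elongases measured, 1 fell, 1 rose and 1 did not pass. ELOVL6, which lengthens palmitate to stearate, read 10.91, 11.06 and 10.98 on the GFP control arrays and 10.12, 9.96 and 9.67 on the arrays labelled GATA3. The groups lay well apart, with a mean 2.09-fold lower (log2 difference -1.06, SE 0.12, adjusted p = 0.00278). Its 2 other probe sets fell by 0.98 and 1.16 (adjusted p = 0.000136 and 0.00175), so all 3 gave a change of similar size. ELOVL7, which lengthens saturated fatty acids beyond that length, read 7.07, 7.07 and 7.28 against 8.35, 8.23 and 7.86. All arrays labelled GATA3 were higher, GATA3 replicate 3 the least, with a mean 2.01-fold higher (log2 difference 1.01, SE 0.15, adjusted p = 0.00696). ELOVL7 has 1 probe set here, so no other reading of it was at hand. The windows of ELOVL6 and ELOVL7 printed above both lack CACGTG, TCACNCCAC and AGATAA, and other forms of these sites were not searched. ELOVL5, which lengthens polyunsaturated fatty acids, differed by 0.17 on its brightest probe set (adjusted p = 0.0526), while its 2 dim probe sets differed by -0.15 and 0.07 and did not pass.

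LPIN1, a phosphatidate phosphatase that makes the diacylglycerol for triglyceride, fell. It read 8.98, 9.00 and 8.98 in the GFP control and 8.40, 8.42 and 7.80 in the arrays labelled GATA3. The GFP control arrays lay close together and all above the others, GATA3 replicate 3 was lowest, with a mean 1.71-fold lower (log2 difference -0.78, SE 0.18, adjusted p = 0.029). Without any one GFP control array it did not pass (adjusted p from 0.0894 to 0.0987), and without GATA3 replicate 3 it was -0.57 and passed (adjusted p = 0.00162). The second probe set (212276_at) fell by 0.91 (adjusted p = 0.0394), a call lost without any one GFP control array or without GATA3 replicate 2 (adjusted p from 0.0786 to 0.12), and the third, dim one differed by -0.15 and did not pass.

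Other genes were counted from 2 further lists, chosen with earlier results of these data known, so their shares are descriptions. The first held 23 genes of sterol handling and of steps outside the 38 genes, with the general factors SP1 and NF-Y among them. Of these, 20 were measured, and 6 rose and 5 fell (55.0% called, against 29.3% of all genes). LIPA, the lysosomal lipase that frees cholesterol from its esters, read 10.69, 10.75 and 10.68 against 11.71, 11.67 and 11.88 (log2 difference 1.05, adjusted p = 0.000313). TM7SF2, a sterol reductase, rose by 1.06 (adjusted p = 0.00644), and LBR, which has the same enzyme activity, fell by 0.40 (adjusted p = 0.0329). The LBR call was lost without any one array other than GFP control replicate 1 (adjusted p from 0.0533 to 0.11) and with array medians set equal (adjusted p = 0.0748). NPC2 and NPC1, which hand cholesterol out of the lysosome one after the other, went in opposite directions: NPC2 rose by 0.60 (adjusted p = 0.000738) and NPC1 fell by 0.54 (adjusted p = 0.01). MBTPS2, a protease that cuts SREBPs, rose by 0.38 (adjusted p = 0.00705). SP1 and NFYC, which code for a GC box factor and a subunit of the CCAAT box factor NF-Y, fell by 0.55 (adjusted p = 0.00409) and 0.54 (adjusted p = 0.0113). NFYC did not pass without GFP control replicate 3 (adjusted p = 0.0514). MBTPS1 and NFYB also rose and ERLIN1 also fell, and the NFYB call was lost without GFP control replicate 3 or GATA3 replicate 1 or 2 (adjusted p from 0.0689 to 0.0789). The other tested probe sets of NPC1, MBTPS2, MBTPS1 and NFYB did not pass (adjusted p = 0.137, 0.132, 0.239, and from 0.168 to 0.974). SP1 214732_at and NFYC 202216_x_at did not pass either (adjusted p = 0.127 and 0.0601), while the other tested probe sets of these genes passed as lower.

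Of 28 genes of fatty acid activation, supply and glycerolipid synthesis, 18 were measured, and 1 rose and 5 fell. The called share was 33.3%, near the 29.3% of all genes (14.8% higher and 14.5% lower). PNPLA3, a lipase and acyltransferase of lipid droplets, read 6.27, 6.34 and 6.60 in the GFP control and 5.42, 4.94 and 4.09 in the arrays labelled GATA3. Its 3 arrays labelled GATA3 were spread widely, all below the GFP control (log2 difference -1.58, SE 0.34, adjusted p = 0.0234), and its second probe set differed by -1.53 without passing (adjusted p = 0.0623). The PNPLA3 call was lost without any one GFP control array or without GATA3 replicate 2 (adjusted p from 0.0657 to 0.0896). DGAT2, which makes triglyceride from diacylglycerol, fell by 0.92 (adjusted p = 0.00109) and ACSL5, which activates long fatty acids, by 0.56 (adjusted p = 0.000692). MID1IP1, a partner of acetyl-CoA carboxylase, fell by 0.39 (adjusted p = 0.0367), a call lost without any one array other than GATA3 replicate 3 (adjusted p from 0.0647 to 0.111) and under the 3 other scalings (adjusted p from 0.104 to 0.127). ME1, the malic enzyme that supplies NADPH, rose by 0.32 (adjusted p = 0.012), and did not pass without GFP control replicate 2 (adjusted p = 0.051). Its second probe set (204058_at) differed by 0.11 and did not pass (adjusted p = 0.515). AGPAT2 also fell, a call lost without any one array other than GATA3 replicate 3 (adjusted p from 0.0623 to 0.113) and under the 3 other scalings (adjusted p from 0.13 to 0.304). The second probe set of AGPAT2 differed by -0.19 and did not pass (adjusted p = 0.1).

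**Figure D4:**
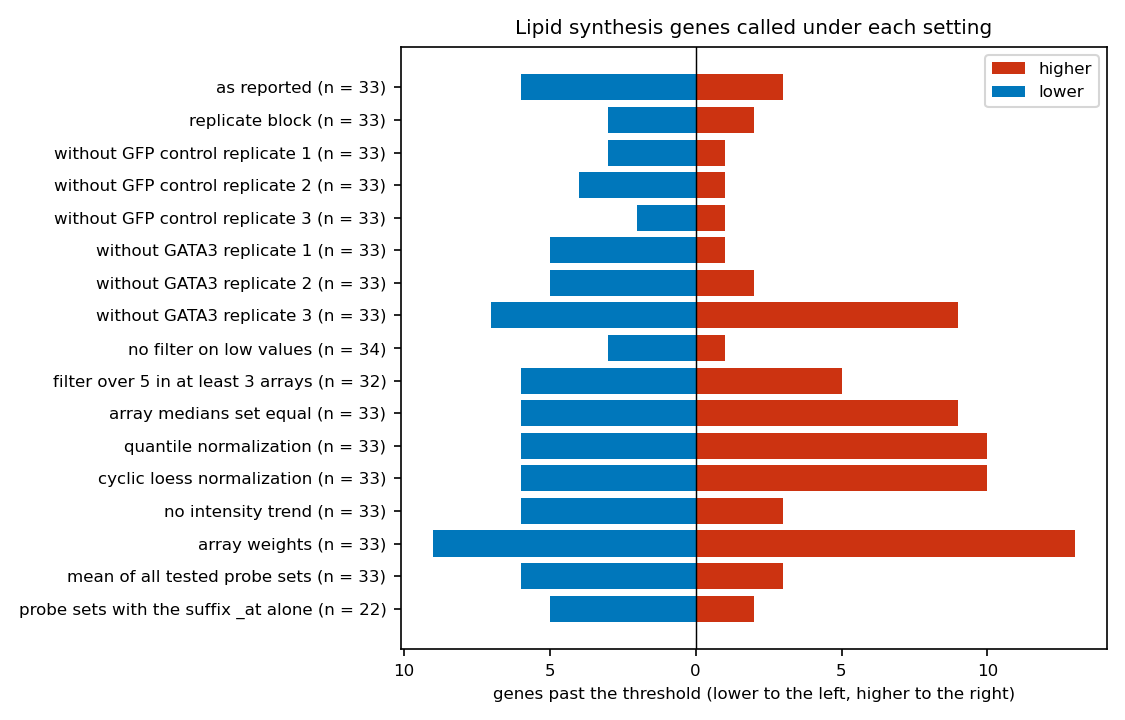
Number of lipid synthesis genes past an adjusted p of 0.05 with the values as reported and under each of 16 alternatives; bars to the left count lower genes and bars to the right higher genes, and n is the number of genes measured. Higher calls range from 1 to 13 and lower calls from 2 to 9.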

How the data were processed

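Total RNA was labelled with biotin and hybridised to 6 single-colour Affymetrix arrays. Values read here as log2 had been made by the authors with GCRMA, a method that subtracts a sequence-based background and summarises each probe set, as named without a version in the submitters' processing notes. The scale itself is stated nowhere in the header or labels. Values were used as deposited. After GCRMA many probe sets share a common floor or repeat a value of their own, so a value over 4 need not be signal. The number of arrays limits the precision.

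The 62 control probe sets were left out, and a probe set was tested if over 4 in at least 3 of 6 arrays (23785 tested, 30828 not). In the platform annotation 41091 probe sets had 1 symbol, 1801 several and 11721 none. Of the first, 41037 matched the current gene table by gene ID and 0 needed an update. The groups were compared with limma 3.58.1 in R 4.3.3 (lmFit, eBayes with an intensity trend, no covariates, two-sided). Benjamini-Hochberg adjustment ran over the 23785 probe sets, with a threshold of 0.05. Folds come from differences of mean log2 values, and are lower bounds against 4 for a group with no array over 4. The fit was tested on simulated data. Alternatives were other scalings, filters, probe set choices, array weights, a replicate block and leaving out each array.

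Each of the 33 lipid synthesis genes is named with its call. Full values were given for the genes past the threshold and for SREBF1, SREBF2, INSIG1, HMGCS1, SQLE, FASN, SCD and ACACA, and also for INSIG2, EBP and second probe sets chosen after their values were seen. Of each further list, up to 4 genes with the largest change in each direction were named with values. The genes, lists and roles were chosen with earlier results of these data known. Promoter windows came from RefSeq (GRCh38.p14).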

Additional observations from a re-analysis of the deposited data

How the results depend on the processing

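INSIG1, ELOVL6 and ELOVL7 passed in the same direction under all 16 alternatives, with adjusted p of at most 0.027, 0.0191 and 0.0423 (limma). The choice of _at probe sets alone left their probe sets as they were and could not change these calls. For ELOVL7, with 1 probe set, the mean of all tested probe sets also left its values as they were. The call was lost under 10 of 16 alternatives for FADS3, 8 of 16 for NSDHL, 7 of 15 for ACSS2, 5 of 16 for LPIN1, 3 of 15 for FADS2 and 2 of 16 for SCD5. Leaving out 1 array at a time gave 1 to 9 lipid synthesis genes higher and 2 to 7 lower, 3 to 12 of their probe sets higher and 6 to 13 lower, and 1796 to 3581 of all probe sets higher and 1801 to 3752 lower. In the sterol handling list it gave 5 to 8 higher and 3 to 6 lower, and in the fatty acid and glycerolipid list 0 to 2 higher and 2 to 5 lower. The replicate numbers were not shown to pair the arrays, since deviations of same-numbered arrays correlated at -0.135, 0.159 and -0.109. With the replicate block 2 lipid synthesis genes were higher and 3 lower, 7 of their probe sets lower, 2106 of all probe sets lower, and 0 and 2 genes of the fatty acid list higher and lower. With no filter on low values 1 gene was higher and 3 lower, 2 and 7 of their probe sets, 1767 of all probe sets lower, and 3 of the fatty acid list lower. With a filter over 5, 5 genes were higher and 6 lower, beside 27.9% of all probe sets called. With array medians set equal, quantile and cyclic loess normalization, 9, 10 and 10 genes and 13 probe sets each were higher. The fatty acid list had 3 lower genes under each of these, and 3 higher with equal medians and with cyclic loess. The median difference of the lipid synthesis genes was then 0.04, 0.01 and 0.05, and that of all tested probe sets was 0.03, -0.01 and 0.01, against -0.05 as deposited. Array weights, whose estimate did not converge, gave 13 genes higher and 9 lower, 19 and 21 of their probe sets, 5195 and 6642 of all probe sets, 8 of the sterol handling list lower and 4 of the fatty acid list higher. The mean of all tested probe sets gave 2 higher genes in the fatty acid list, and probe sets with the suffix _at alone gave 3 lower.

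Signs changed for genes that did not pass. Leaving out 1 array gave HSD17B7 from -0.0482 to 0.134, SREBF2 from -0.18 to 0.028, DHCR7 from -0.0974 to 0.0278 and STARD4 from -0.176 to 0.0005. With equal medians DHCR7 was 0.0437, SCAP 0.0181, SREBF2 0.0255 and ACLY 0.0496. With quantile normalization DHCR7 was 0.0126 and SREBF2 0.0212, and with cyclic loess DHCR7 was 0.0455, SCAP 0.0159 and SREBF2 0.0477. With the mean of all probe sets IDI1 was -0.0136, DHCR7 0.0802 and ACACA -0.0065, and with _at probe sets alone MVK was -0.0396 and IDI1 -0.41. The cause of these changes was not tested. Fewer arrays leave fewer degrees of freedom, and signal near the floor limits dim probe sets.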
